A study of Mus musculus with 8 samples.

Results

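The genes described here are 10 members of the circadian clock, the transcription factor Dbp, the nuclear receptors Nr1d1 and Nr1d2, the period genes Per1, Per2 and Per3, the activators Arntl (also called Bmal1) and Clock, and the cryptochromes Cry1 and Cry2. They were selected on earlier results of the same arrays, namely on the difference between FoxO3 null and wild type neurospheres in each set. Their genotype values below are therefore a description of the chosen genes, printed without p-values, and the 1 count of calls among them is given only beside the share of all probe sets called. Every probe set that the array's annotation gives to one of these symbols alone was kept, which made 23 probe sets of the 45037 measured, for 10 of 18193 genes. Of the 23 probe sets, 5 lay below the level of the median probe set of the table, and all 23 are accounted for.

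FoxO3 is a transcription factor that insulin and growth factor signalling keep out of the nucleus. The study compared neurospheres, floating colonies grown from neural stem and progenitor cells, between forebrains of FoxO3 null mutants (FoxO3-/-) and of wild type mice (FoxO3+/+), both on the FVB/N background. Cells of both genotypes grew with bFGF and EGF, each at 20 ng/ml, and secondary neurospheres were collected on day 6, having been seeded at 50000 cells/ml. There were 4 arrays of FoxO3 null and 4 of wild type neurospheres, 2 per genotype in set 2 and 2 per genotype in set 1. What distinguishes the sets, which part of Foxo3 the mutation removes and at what time of day cells were taken is not in the labels. Nor is it stated whether arrays of a group came from separate mice or cultures, so a p-value here reflects array-to-array spread that may be only technical.

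In the mammalian clock, ARNTL and CLOCK bind as a pair to E-boxes and switch on the Per, Cry, Nr1d1, Nr1d2 and Dbp genes. PER and CRY proteins then enter the nucleus and block that pair. REV-ERB receptors (the products of Nr1d1 and Nr1d2) repress Arntl through ROR elements, and DBP activates genes with D-boxes, Per genes among them. Cultured cells drift out of phase unless a stimulus such as serum, fresh medium or a glucocorticoid sets them together, and the level in a dish then depends on when it was taken.

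Promoter windows of 3 of the genes with exact matches to motifs of the clock loop or of FoxO are printed, because the values below concern these genes. Whether the matches are bound or active was not tested. Each runs from 250 bases before to 50 bases after a transcription start (RefSeq, GRCm38.p6), 5′ to 3′ on the strand of the gene, with matches to the searched motifs on that strand in capitals. The Per3 window, chr4:151044616-151044915 on the minus strand, holds 2 D-boxes (TTATGTAA), whose first bases lie 205 and 158 bases before the start. The Per1 window, chr11:69098699-69098998 on the plus strand, holds 1 E-box (CACGTG) 166 bases before the start. The Cry1 window, chr10:85185005-85185304 on the minus strand, holds an E-box 60 bases before the start and the core of a FoxO motif (GTAAACA) 95 bases before it.
Per3: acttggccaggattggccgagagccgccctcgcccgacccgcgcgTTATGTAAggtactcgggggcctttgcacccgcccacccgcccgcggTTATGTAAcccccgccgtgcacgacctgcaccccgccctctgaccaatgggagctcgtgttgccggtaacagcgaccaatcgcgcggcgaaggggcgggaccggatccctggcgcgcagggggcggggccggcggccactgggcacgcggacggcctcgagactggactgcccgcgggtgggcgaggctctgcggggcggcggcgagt
Per1: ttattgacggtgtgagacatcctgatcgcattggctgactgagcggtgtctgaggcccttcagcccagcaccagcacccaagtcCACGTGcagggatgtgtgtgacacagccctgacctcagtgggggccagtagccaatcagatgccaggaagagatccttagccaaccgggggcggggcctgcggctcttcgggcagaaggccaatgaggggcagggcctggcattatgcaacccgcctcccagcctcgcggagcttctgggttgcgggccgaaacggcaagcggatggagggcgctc
Cry1: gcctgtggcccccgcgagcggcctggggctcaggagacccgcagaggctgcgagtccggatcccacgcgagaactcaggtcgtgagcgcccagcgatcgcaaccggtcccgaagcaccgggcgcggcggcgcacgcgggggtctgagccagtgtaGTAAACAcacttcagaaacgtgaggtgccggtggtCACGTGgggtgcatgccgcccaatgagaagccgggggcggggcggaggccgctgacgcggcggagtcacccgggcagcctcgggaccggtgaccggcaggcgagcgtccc

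Motifs were searched on both strands in 13 windows of 9 of the 10 genes, and in all 32851 windows of the same table. The E-box CACGTG was found in 7.15% of all windows, the related E-prime box CACGTT in 4.68%, the D-box TTATGTAA in 0.938%, the ROR element core TAGGTCA in 2.61% and the FoxO core GTAAACA in 3.65%. Besides the matches printed above, the E-prime box stood on the opposite strand in windows of Cry1, Cry2 and Nr1d1, with its first base 79, 166 and 28 bases before the start, and the ROR core stood 31 bases after a start of Arntl. A second start of Per1 and the windows of Dbp, Nr1d2 and Clock held none of these letters, which says nothing about factors bound elsewhere in those genes.

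The labels were checked on Foxo3 itself. Probe sets 1434831_a_at and 1434832_at were lower in FoxO3 null than in wild type neurospheres, with log2 differences of -1.17 and -1.07 (limma, Benjamini-Hochberg adjusted p = 0.000649 and 0.0021). Probe set 1444226_at, which also carries the symbol Gm38485, differed by -0.48 (adjusted p = 0.0207) and probe set 1450236_at by 0.33 (adjusted p = 0.11). All 6 neural stem and progenitor markers (Nes, Sox2, Vim, Fabp7, Msi1, Prom1) lay above the median probe set, and 0 of 6 passed between genotypes. Their mean was 10.85 to 11.11 in FoxO3 null and 10.86 to 11.20 in wild type arrays. Of 5 astrocyte markers, 1 passed as lower in FoxO3 null neurospheres, the glutamate transporter Slc1a2 (-0.84, adjusted p = 0.000649), as did 1 of 4 measured oligodendrocyte markers, the progenitor receptor Pdgfra (-0.67, adjusted p = 0.0108), where 1.12% of all genes passed in either direction. The medians of these lists were 0.06 and 0.10, with Mbp at 0.44 (adjusted p = 0.238), and 0 of 5 neuron markers passed (median -0.07). All 5 microglia and blood markers, 4 of 5 endothelial and mural and all 4 fibroblast markers lay below the median probe set. Arrays correlated at 0.996 or more within a set and at 0.991 or less between sets. In bulk RNA, fewer cells of a type and less RNA per cell cannot be told apart. Averaged over Eif2s3y, Kdm5d and Uty, which lie on the Y chromosome, the level was 6.88 and 7.10 in set 2 and 7.90 and 8.09 in set 1 for FoxO3 null, against 7.80 and 7.66 in set 2 and 8.35 and 8.18 in set 1 for wild type. FoxO3 null lay below wild type in each set, for these genes and for Dbp. Between sets, these genes were lower in set 2 in both genotypes and Dbp was higher. The level of the Y-linked genes went with genotype within each set, so their parts in the Dbp difference cannot be told apart. The labels do not give the sex of the mice.

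Of the 10 genes, Dbp differed most between the genotypes, Per3 came next, and the other 8 genes differed by 0.14 or less on the log2 scale. With a covariate made from the 3 Y-linked genes, added after seeing the data, that order changed. Dbp was at -0.40 ± 0.23 (SE), Nr1d1 at -0.33 ± 0.13, Arntl at -0.23 ± 0.11, Per3 at -0.17 ± 0.14 and Cry1 at -0.17 ± 0.13. The second Dbp probe set, 1418174_at, was at -0.10 ± 0.13. With SEs of this size the order under the covariate is not settled. All values are RMA expression values on the log2 scale, so a difference of 1 is a doubling, and levels of different probe sets are not compared. Where a gene has several probe sets, the brightest over the 8 arrays stands for it.

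Dbp (chr7:45705100-45710203, GRCm38.p6, the build of all positions here) encodes a PAR bZIP activator of D-box genes and is one of the most strongly cycling clock outputs. Its brighter probe set 1438211_s_at read 7.89 and 8.01 in set 2 and 7.37 and 7.47 in set 1 in FoxO3 null neurospheres, against 8.92 and 8.42 in set 2 and 8.38 and 7.85 in set 1 in wild type neurospheres. Both FoxO3 null arrays lay below both wild type arrays in each set, but the groups overlapped when sets were pooled. The FoxO3 null arrays of set 2 were above the lowest wild type array of set 1. The means were 7.69 ± 0.31 in FoxO3 null and 8.39 ± 0.43 in wild type neurospheres (SD, n = 4 each), a difference of -0.71 ± 0.12 (SE), or 61.3% of the wild type level. Within the sets the difference was -0.72 in set 2 and -0.70 in set 1.

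The second Dbp probe set, 1418174_at, read 7.58 and 7.89 in set 2 and 7.04 and 7.35 in set 1 in FoxO3 null, against 8.39 and 8.20 in set 2 and 7.55 and 7.55 in set 1 in wild type neurospheres. Again both FoxO3 null arrays were below both wild type arrays in each set. The difference was -0.46 ± 0.09, or 72.7% of the wild type level, being -0.57 in set 2 and -0.35 in set 1. With the Y-linked covariate it was -0.10 ± 0.13.

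**Figure D1:**
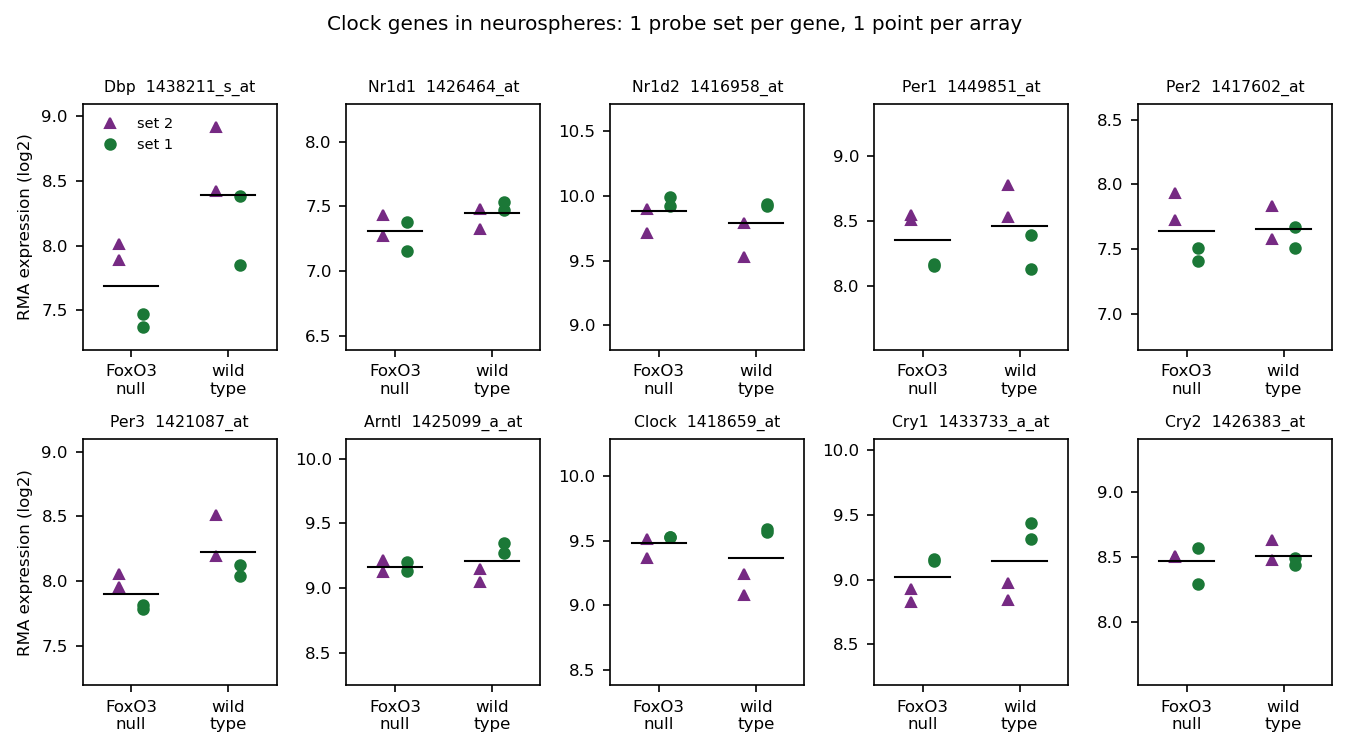
RMA expression (log2, y axis, the same span of values in every panel) of the brightest probe set of each of the 10 clock genes, with 1 point per array, triangles for set 2, circles for set 1 and a line at the mean of the 4 arrays, FoxO3 null at the left and wild type at the right of each panel. Dbp has a mean of 7.69 in FoxO3 null and 8.39 in wild type, Per3 of 7.90 in FoxO3 null and 8.22 in wild type, and the other panels show means within 0.14 of each other.

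Per3 (chr4:150997018-151044707), a period gene that mice can lose with little effect on their rhythms, has 6 probe sets. The brightest, 1421087_at, read 7.95 and 8.05 in set 2 and 7.81 and 7.78 in set 1 in FoxO3 null, against 8.51 and 8.19 in set 2 and 8.12 and 8.04 in set 1 in wild type neurospheres. FoxO3 null lay below wild type in each set, and over both sets the ranges met only where 1 FoxO3 null array of set 2 passed 1 wild type array of set 1. The means were 7.90 ± 0.13 in FoxO3 null and 8.22 ± 0.21 in wild type neurospheres (SD, n = 4 each), a difference of -0.32 ± 0.07 (SE) or 80.2% of the wild type level. With the Y-linked covariate it was -0.17.

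The other 5 Per3 probe sets differed less. Probe set 1458176_at differed by -0.18 ± 0.09, and 1460662_at by 0.01 ± 0.08, with FoxO3 null below wild type in set 2 (-0.17) and above it in set 1 (0.19). The 3 probe sets below the median level of the table, 1442243_at, 1421086_at and 1441445_at, differed by -0.05, -0.10 and -0.13. Among the 13 windows of these genes, the Per3 window printed above was the 1 in which a D-box was found.

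Per1 (chr11:69095108-69109965) and Per2 (chr1:91415977-91459351), the period genes whose proteins carry the negative feedback, were near each other in the genotypes. Per1 (1449851_at) read 8.55 and 8.51 in set 2 and 8.15 and 8.17 in set 1 in FoxO3 null, against 8.78 and 8.53 in set 2 and 8.39 and 8.13 in set 1 in wild type. Its difference was -0.11 ± 0.07. Per2 (1417602_at) read 7.72 and 7.93 in set 2 and 7.41 and 7.51 in set 1 in FoxO3 null, against 7.83 and 7.58 in set 2 and 7.67 and 7.51 in set 1 in wild type. The groups overlapped in both genes, and the Per2 difference was -0.0031 ± 0.08 with opposite signs in the sets, 0.12 in set 2 and -0.13 in set 1. The 2 other Per2 probe sets differed by 0.05 (1417603_at) and -0.0023 (1457350_at).

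Nr1d1 (chr11:98767932-98775377) and Nr1d2 (chr14:18204056-18239106) encode REV-ERB alpha and beta, heme-binding repressors of Arntl. Nr1d1 (1426464_at) read 7.43 and 7.27 in set 2 and 7.38 and 7.15 in set 1 in FoxO3 null, against 7.48 and 7.32 in set 2 and 7.53 and 7.47 in set 1 in wild type neurospheres. The difference was -0.14 ± 0.07, being -0.05 in set 2 and -0.23 in set 1, and -0.33 with the Y-linked covariate. Nr1d1 overlaps Thra by 1075 bases on the genome, and probe positions were not used here. Nr1d2 differed by 0.09 ± 0.07 at 1416958_at and 0.07 ± 0.07 at 1416959_at, with groups that overlapped in both when sets were pooled. At 1416959_at, FoxO3 null lay above wild type in set 2 (0.14) and overlapped it in set 1 (-0.0015).

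The activators differed by 0.14 or less without the Y-linked covariate. Arntl (chr7:113178471-113314126) at 1425099_a_at read 9.22 and 9.12 in set 2 and 9.20 and 9.13 in set 1 in FoxO3 null, against 9.15 and 9.05 in set 2 and 9.27 and 9.35 in set 1 in wild type. Over both sets these values overlapped. FoxO3 null overlapped wild type in set 2 (0.07) and lay below it in set 1 (-0.15). The difference was -0.04 ± 0.06, or -0.23 ± 0.11 with the Y-linked covariate. The dim second probe set 1457740_at differed by 0.14 ± 0.09. Clock (chr5:76209868-76305603) at 1418659_at read 9.37 and 9.51 in set 2 and 9.53 and 9.53 in set 1 in FoxO3 null, against 9.24 and 9.08 in set 2 and 9.57 and 9.59 in set 1 in wild type. FoxO3 null was above wild type in set 2 (0.28) and below it in set 1 (-0.05), for a difference of 0.11 ± 0.08 over both, or -0.03 with the Y-linked covariate. The 3 other Clock probe sets, 1418660_at, 1435775_at and 1439314_at, differed by 0.05, -0.04 and -0.02.

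The cryptochromes Cry1 and Cry2 encode repressors that bind ARNTL and CLOCK and block their activity. Cry1 (chr10:85131700-85185054, on the chromosome of Foxo3 and 42.9 megabases from it) at 1433733_a_at read 8.83 and 8.93 in set 2 and 9.16 and 9.14 in set 1 in FoxO3 null, against 8.97 and 8.84 in set 2 and 9.44 and 9.31 in set 1 in wild type. FoxO3 null overlapped wild type in set 2 (-0.02) and lay below it in set 1 (-0.22), for a difference of -0.12 ± 0.06. Cry2 (chr2:92403646-92434085, 1426383_at) differed by -0.04 ± 0.07, with overlapping groups in each set.

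Counted over the list, 16 of 23 probe sets were lower and 7 higher in FoxO3 null than in wild type neurospheres, with a median difference of -0.04. Of all probe sets 45.3% were lower, and the median was 0.0098. By the brightest probe set, 8 genes were lower and 2, Nr1d2 and Clock, higher, with a median of -0.08. Of the 23, 20 lay within 0.2 of no difference, all but both Dbp probe sets and 1421087_at of Per3. These same 3 were the probe sets with both FoxO3 null arrays below both wild type arrays in each set (5.25% of all probe sets), and 0 of 23 had all 4 FoxO3 null arrays below all 4 wild type arrays (1.33% of all). The fit across all probe sets (limma, Benjamini-Hochberg adjusted p under 0.05) called 1 of the 23, Dbp 1438211_s_at, as lower. That stands beside 0.802% of all probe sets called, 0.586% called lower, and 1.12% of genes called by their brightest probe set. The genes were chosen on this contrast, so the counts carry no weight of their own. The sign was the same in both sets for 16 of 23 probe sets, and for 55.6% of all.

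**Figure D2:**
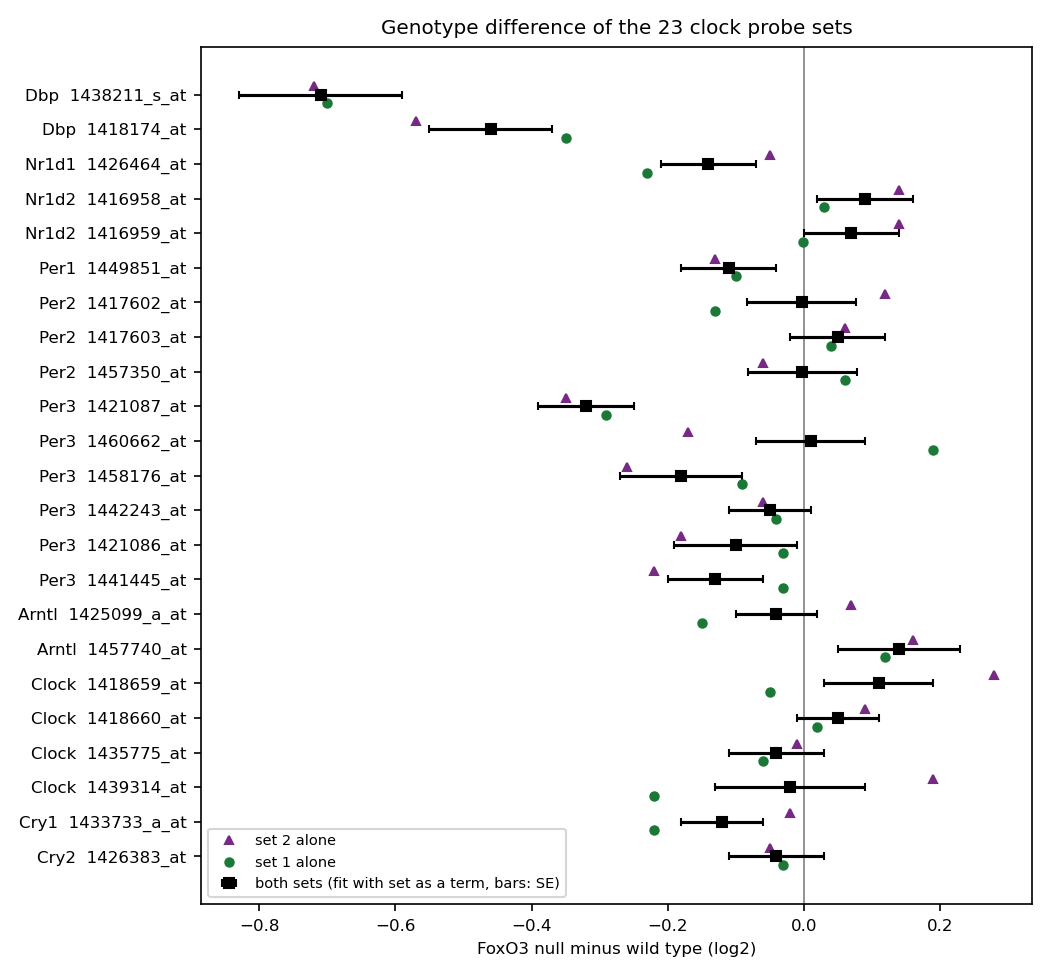
Difference between FoxO3 null and wild type neurospheres (x axis, log2, negative where FoxO3 null is lower) for the 23 clock probe sets (y axis), with squares and SE bars for the fit over both sets, triangles for set 2 alone and circles for set 1 alone. Both Dbp probe sets (-0.71 and -0.46) and Per3 1421087_at (-0.32) lie left of the others, and the triangle and the circle fall on opposite sides of 0 for 7 of the 23, Clock 1418659_at and Per3 1460662_at among them.

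The rule also set the E-box output genes (Dbp, Nr1d1, Nr1d2, Per1, Per2, Per3) against the positive limb (Arntl, Clock), 1 probe set per gene. With each set's mean subtracted, the mean of the E-box genes was -0.12 and -0.05 in set 2 and -0.12 and -0.11 in set 1 in FoxO3 null, against 0.23 and -0.06 in set 2 and 0.21 and 0.03 in set 1 in wild type arrays. The spread was 0.04 in FoxO3 null and 0.14 in wild type arrays (SD, n = 4 each), and 1 wild type array of set 2 stood among the FoxO3 null arrays. The E-box mean differed by -0.20 between FoxO3 null and wild type, being -0.16 in set 2 and -0.24 in set 1, with 5 of 6 genes lower and a median over genes of -0.13.

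The positive limb differed by 0.04, 0.17 in set 2 and -0.10 in set 1, and the cryptochromes by -0.08. The E-box mean minus the positive limb mean was -0.19 and -0.14 in set 2 and -0.09 and -0.05 in set 1 in FoxO3 null, against 0.25 and 0.09 in set 2 and 0.18 and -0.05 in set 1 in wild type arrays. The lowest wild type array was above the highest FoxO3 null array by 0.00095, far less than the spread within either genotype. The difference was -0.24 over both sets, -0.34 in set 2 and -0.14 in set 1. Without Dbp it was -0.13, and with the Y-linked covariate 0.01.

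**Figure D3:**
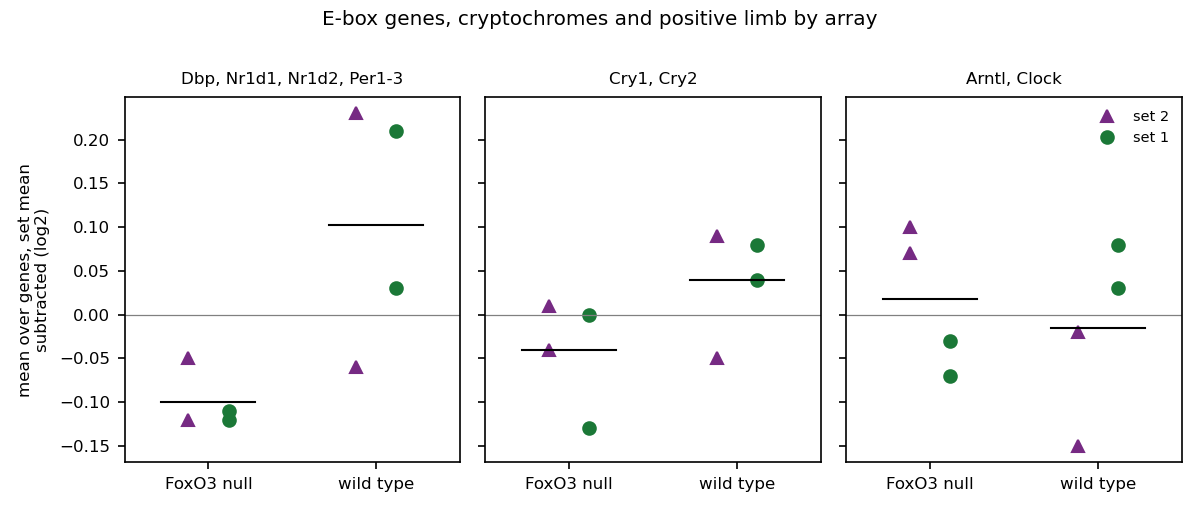
Mean log2 expression by array, with the mean of its set subtracted (y axis), of the E-box output genes (left panel), the cryptochromes (middle) and the positive limb (right), FoxO3 null at the left and wild type at the right of each panel, triangles for set 2, circles for set 1 and lines at group means. The E-box genes average -0.10 in FoxO3 null and 0.10 in wild type arrays, and 1 wild type triangle at -0.06 lies at the level of the FoxO3 null points.

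The difference between the sets was not used to choose the genes and could be tested. Per1 and Dbp were higher and Cry1 lower in set 2 than in set 1, and by the brightest probe set 7 of the 10 genes passed (limma, set 2 against set 1 with genotype in the fit, Benjamini-Hochberg adjusted p under 0.05), where 41.6% of all genes did. Dbp, Per1, Per2 and Per3 passed as higher in set 2, Nr1d2, Clock and Cry1 as lower, and Nr1d1, Arntl and Cry2 did not pass. Over probe sets, 13 of 23 passed, 9 as higher and 4 as lower, against 38.4% of all probe sets. With the sets so far apart throughout the table, passing is common and the count for the clock genes is to be read beside those shares.

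Dbp 1418174_at averaged 8.01 ± 0.36 in set 2 and 7.37 ± 0.24 in set 1 (SD, n = 4 each), a difference of 0.64 ± 0.09 (SE, limma adjusted p = 0.000475), or 1.56-fold, with all 4 arrays of set 2 above all 4 of set 1. Dbp 1438211_s_at averaged 8.31 ± 0.46 in set 2 and 7.77 ± 0.46 in set 1, 0.54 ± 0.12 (adjusted p = 0.00648), and the difference was 0.53 in FoxO3 null and 0.55 in wild type arrays. Per1 was 8.59 ± 0.13 in set 2 and 8.21 ± 0.12 in set 1, higher by 0.38 ± 0.07 (adjusted p = 0.00242) or 1.30-fold, without overlap. Cry1 was 8.89 ± 0.07 in set 2 and 9.26 ± 0.14 in set 1, a difference of -0.37 ± 0.06 (adjusted p = 0.00141), again without overlap. These 4 probe sets passed in each of the 8 fits that left out an array. With the Y-linked covariate, 0 of the 10 genes passed by the brightest probe set and 1 of 23 probe sets, Dbp 1418174_at (1.19 ± 0.19). The differences of these 4 probe sets did not shrink, with 1.00 ± 0.32 for Dbp 1438211_s_at, 0.58 ± 0.20 for Per1 and -0.44 ± 0.19 for Cry1. Their SEs were larger. The difference of Nr1d2 1416958_at did shrink, to -0.13 ± 0.21. The Y-linked genes were lower in set 2 than in set 1 in both genotypes. The parts of the Y-linked level and of set in these differences therefore cannot be told apart.

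Weaker differences depended on single arrays. Per3 1421087_at was higher in set 2 by 0.24 (adjusted p = 0.0254) but did not pass after a further quantile normalization (0.14, adjusted p = 0.13), nor without FoxO3 null array 2 of either set, wild type array 2 of set 1 or wild type array 1 of set 2. Clock 1418659_at, lower in set 2 (-0.26, adjusted p = 0.0233), did not pass without any 1 of the 4 wild type arrays. Nr1d2 1416958_at (-0.21, adjusted p = 0.0402) was lost with median-centred arrays and in 5 of the 8 fits that left out an array. Those were the fits without FoxO3 null array 2 of set 1, FoxO3 null array 1 of set 2, either wild type array of set 1 or wild type array 2 of set 2. Per2 1417602_at (0.24, adjusted p = 0.0476) was lost with quantile normalization or median centring of the arrays and in 6 of those 8 fits, all but those without wild type array 1 of set 1 or wild type array 2 of set 2.

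The probe sets of 1 gene did not always move alike. In 3 of the 6 genes with several probe sets, Nr1d2, Per2 and Clock, 1 probe set passed as higher and another as lower in set 2, which held for 11.0% of the 9010 genes with more than 1 probe set. For Nr1d2, 1416958_at differed by -0.21 and 1416959_at by 0.25 (adjusted p = 0.0201). For Per2, 1417602_at differed by 0.24 and 1417603_at by -0.24 (adjusted p = 0.0251), and for Clock, 1418659_at by -0.26 and 1435775_at by 0.28 (adjusted p = 0.00813). With single arrays left out the count of such genes lay between 0 and 2, at 0 without wild type array 2 of either set and at 1 without wild type array 1 of set 1 or any 1 FoxO3 null array. Of these probe sets, 1416959_at did not pass without FoxO3 null array 1 of set 1, FoxO3 null array 2 of set 2 or wild type array 2 of set 1, and 1417603_at without array 1 of either set of FoxO3 null or array 2 of either set of wild type. Per3 1460662_at (0.44, adjusted p = 0.00261) and 1458176_at (0.26, adjusted p = 0.041) were higher in set 2, as was the brightest Per3 probe set, and the 3 dim ones did not pass. The call of 1458176_at was lost in 6 of the 8 fits that left out an array, all but those without FoxO3 null array 1 of set 1 or array 2 of set 2.

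**Figure D4:**
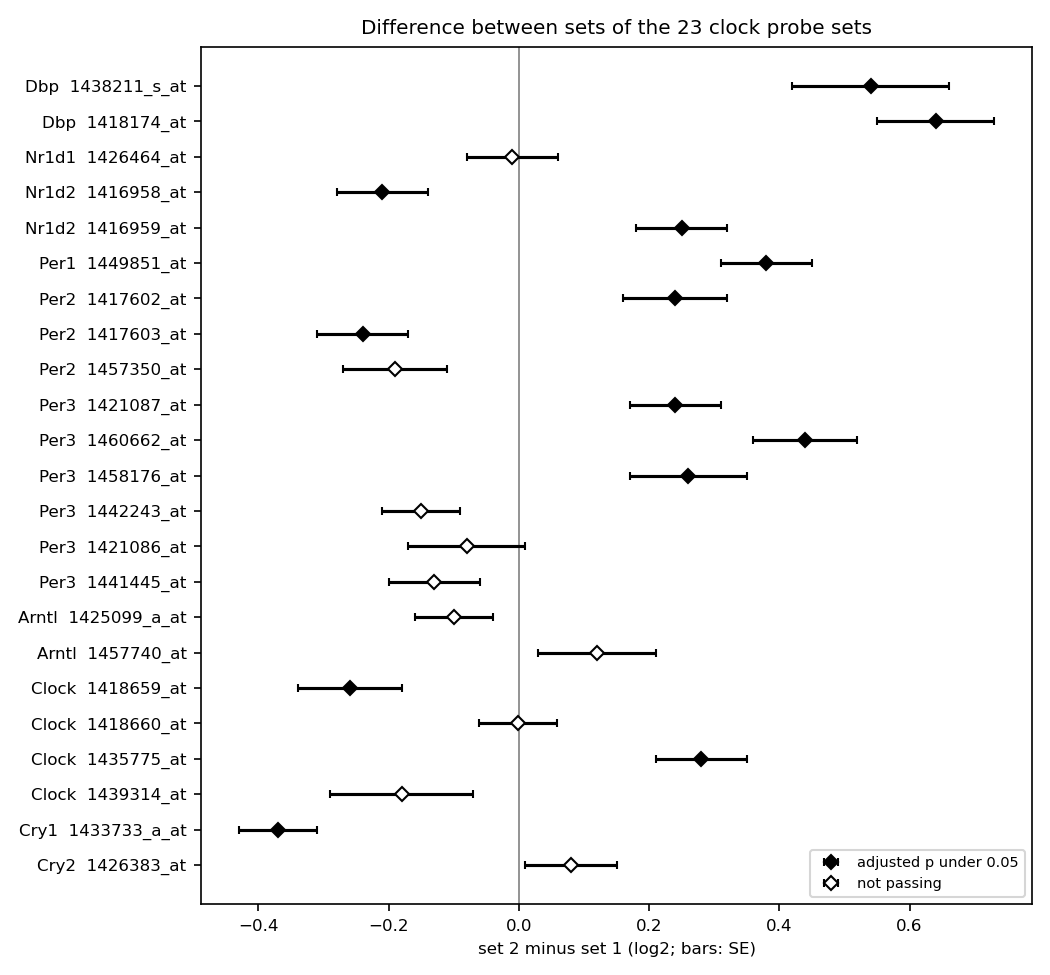
Difference between set 2 and set 1 (x axis, log2, positive where set 2 is higher, bars SE) for the 23 clock probe sets (y axis), filled where the adjusted p was under 0.05. Dbp (0.54 and 0.64), Per1 (0.38) and 3 Per3 probe sets lie at the right and Cry1 (-0.37) at the left, while Nr1d2, Per2 and Clock each have filled points on both sides of 0.

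The 3' over 5' signal of the actin control probes, a measure of RNA integrity, was 0.33 and 0.36 in set 2 and 0.47 and 0.49 in set 1 in FoxO3 null, and 0.39 and 0.36 in set 2 and 0.54 and 0.52 in set 1 in wild type arrays, on the log2 scale. It was lower in every array of set 2 than in every array of set 1, and within set 1 lower in FoxO3 null than in wild type. The same measure for Gapdh was -0.10 and -0.11 in set 2 and -0.10 and -0.09 in set 1 in FoxO3 null. In wild type it was -0.11 and -0.07 in set 2 and -0.08 and -0.07 in set 1, so that the sets overlapped for Gapdh. The part of either measure in the genotype and set differences was not tested. The sets also differed in Tsc22d3 (also called Gilz), a gene that glucocorticoids induce. It averaged 8.64 ± 0.33 in set 2 and 6.89 ± 0.19 in set 1 (SD, n = 4 each), higher by 1.75 ± 0.13 (adjusted p = 7.84e-06) or 3.36-fold. Of the 4 Tsc22d3 probe sets, 2 passed between the sets. The glucocorticoid response also reaches Per1 and Dbp in other tissues, and whether it has a part in their set differences here was not tested. Of the 6 genes listed for it, 3 passed, where 41.6% of all genes did. These were, as higher in set 2, Tsc22d3 and the kinase Sgk1 (0.34, adjusted p = 0.00291), and 1 as lower, Zbtb16 (-0.53, adjusted p = 0.00506). Fkbp5, another gene that glucocorticoids induce, differed by -0.10 (adjusted p = 0.182).

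A list of 42 other clock and clock-linked genes was read for genotype in the same fit, and 38 had a probe set of their own. Of the 38, 1 passed as lower in FoxO3 null neurospheres and 0 as higher, where 1.12% of all genes passed. An unadjusted p under 0.05 was found for 6 (14.5% of all genes). The difference was negative for 24 (45.8% of all genes), with a median of -0.04 (0.0091 over all genes). The 1 that passed was Bhlhe40 (also called Dec1), a bHLH repressor that competes for E-boxes and is itself switched on by ARNTL and CLOCK. Its probe set 1418025_at read 11.29 and 11.19 in set 2 and 11.54 and 11.42 in set 1 in FoxO3 null, against 11.59 and 11.50 in set 2 and 11.89 and 11.79 in set 1 in wild type neurospheres. FoxO3 null lay below wild type in each set, with means of 11.36 ± 0.15 in FoxO3 null and 11.69 ± 0.18 in wild type (SD, n = 4 each). The difference was -0.33 ± 0.06 (SE, limma adjusted p = 0.0309), or 79.4% of the wild type level. In the 8 fits that left out an array the difference was -0.36 to -0.30 and did not pass (adjusted p 0.0538 to 0.125). Over all alternatives it was -0.40 to -0.30, with an adjusted p of 0.00125 to 1.0.

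The other roles held no gene that passed. Among the ROR receptors, which activate Arntl, Rora differed by -0.23 ± 0.08 (adjusted p = 0.24) and Rorb by -0.17 ± 0.07 (adjusted p = 0.383). In the PAR bZIP group, Nfil3, the repressor that opposes DBP at D-boxes, differed by -0.19 ± 0.06 (adjusted p = 0.223). The Nfil3 probe set lay below the median level of the table. Hlf, a relative of Dbp, differed by -0.09 (adjusted p = 0.525). Ciart, an E-box repressor of the clock, differed by -0.20 ± 0.10 (adjusted p = 0.462).

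Nampt, the NAD-producing enzyme whose gene is a clock output, differed by -0.34 ± 0.10 (adjusted p = 0.162), as large as Bhlhe40 but with more spread, and Noct, a rhythmically expressed gene also called Ccrn4l, by -0.13 (adjusted p = 0.336). Values on the other side of 0 were smaller. They were 0.11 for Arntl2, a paralogue of Arntl (adjusted p = 0.541), 0.06 for Npas2, a paralogue of Clock (adjusted p = 0.801), 0.10 for the PER kinase Csnk1d (adjusted p = 0.573), 0.11 for the PER partner Nono (adjusted p = 0.395) and 0.13 for Wdr5 (adjusted p = 0.397). Of these, the Npas2 probe set lay below the median level of the table. The AMPK subunit Prkaa2 differed by -0.14 (adjusted p = 0.505), Errfi1 by -0.10 (adjusted p = 0.451) and Tsc22d3 by -0.25 (adjusted p = 0.465). Between the sets, 16 of the 38 passed, 9 as lower and 7 as higher in set 2, where 41.6% of all genes did.

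**Figure D5:**
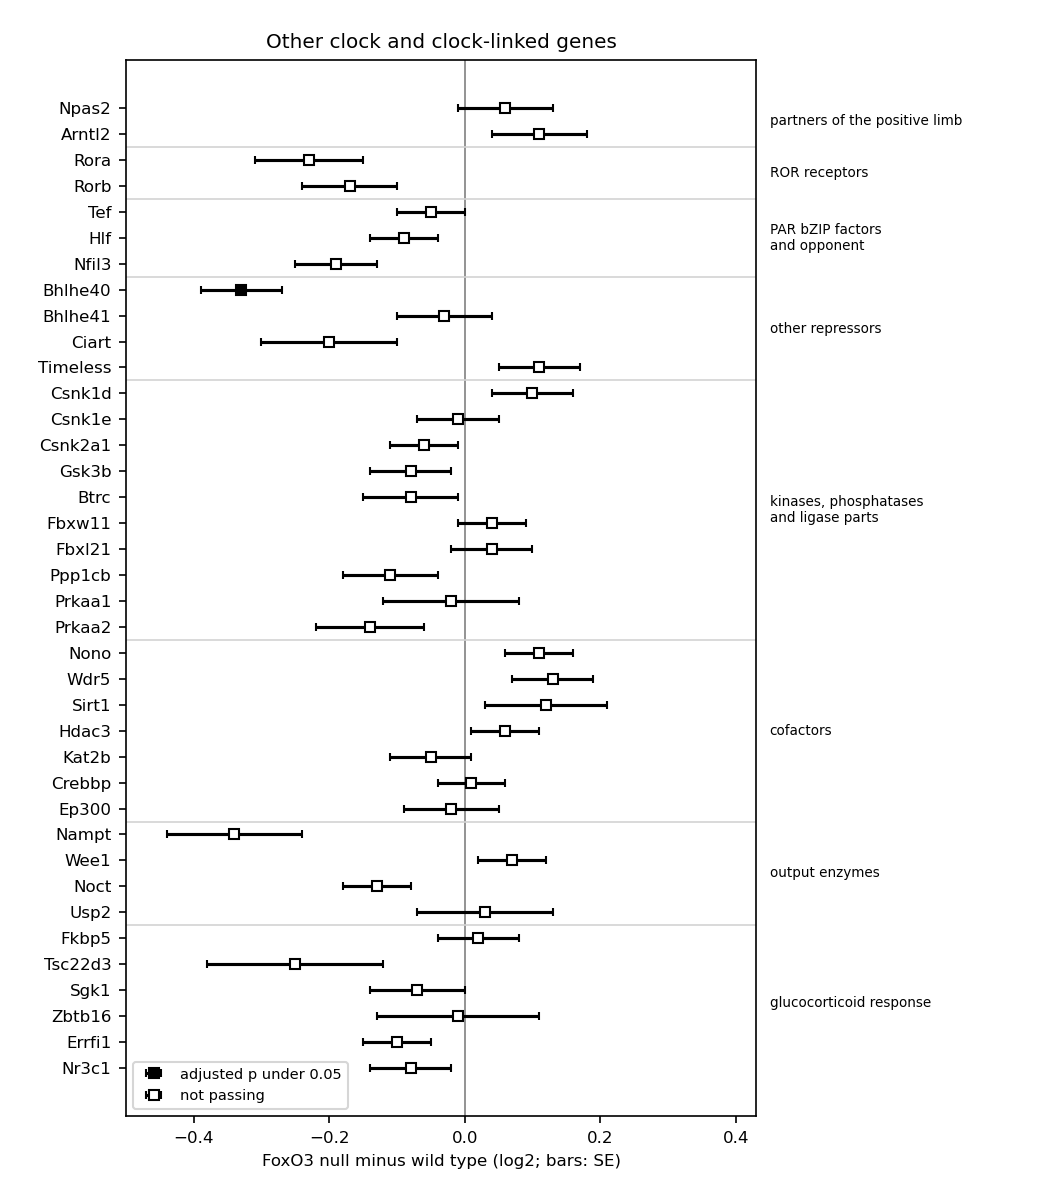
Difference between FoxO3 null and wild type neurospheres (x axis, log2, negative where FoxO3 null is lower, bars SE) for 38 other clock and clock-linked genes (y axis, grouped by role), filled where the adjusted p was under 0.05. Bhlhe40 (-0.33) is the 1 filled point, and Nampt (-0.34) lies as far left with a wider bar.

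Genes were ranked by how near their profile over the 8 arrays lay to that of Dbp 1438211_s_at. Set means were subtracted, each profile was scaled to unit length, and 18183 genes were ranked by Euclidean distance. The nearest 5 were Pcyox1 (distance 0.139), Stradb (0.177), Sox4 (0.18), Ociad2 (0.20) and Csnk1g3 (0.203). Their differences between FoxO3 null and wild type were -0.08, -0.14, -0.11, -0.28 and -0.09, all smaller than that of Dbp, and none passed (adjusted p 0.0958 for Ociad2 and 0.336 to 0.588 for the others). Per3 stood at rank 50 (0.291), the other Dbp probe set at the place of rank 478 (0.514), Per1 at rank 584 (0.548) and Cry1 at rank 905 (0.635). Farther away were Nr1d1 at rank 2228, Cry2 at 4479, Per2 at 4544, Arntl at 5668, Nr1d2 at 9704 and Clock at 11925 (1.63). With 8 arrays and the genotype difference part of every profile, such nearness is a description of these arrays.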

How the data were processed

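RNA of neurospheres was hybridised to 8 Affymetrix Mouse430_2 arrays, 4 per genotype. The deposited table holds log2 expression values. Per the submitters' processing notes the authors' method was RMA (version not given in the sources used here). Of 45101 probe sets, 64 controls were left out. Of 45037 tested, 34945 carry 1 gene symbol in the platform annotation, 932 several and 9160 none. Only those with 1 symbol were assigned to a gene.

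One limma 3.58.1 model in R 4.3.3 (lmFit, eBayes, two-sided, Benjamini-Hochberg over all probe sets, adjusted p under 0.05) held genotype and set. It was run on simulated data with independent noise for each array. Such data cannot show the effect of technical replicates, pairing or the Y-linked level. The members and lists were chosen with earlier results of these data known. Named were every member probe set, each passing listed gene with the 2 smallest p per role, the 5 genes nearest Dbp, and every Foxo3 probe set. Alternatives were no set term, single sets or genotypes, other scalings, filter, variance models, blocks, means, probe set choices and single arrays left out. A covariate from Y-linked genes was added after seeing the data. Same-numbered arrays are not paired by the labels. Positions and promoters are from RefSeq, GRCm38.p6. The number of arrays limits the precision.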

Additional observations from a re-analysis of the deposited data

Results flagged for a closer look

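For each member probe set, the E-box difference and Bhlhe40, the 4 arrays of a genotype were searched for an array far from the other 3, and 2 of the 50 groups so searched held one. Chance gives about 1 in 20 when the 4 arrays come from 1 distribution, but here they span both sets, which differed in both of the probe sets concerned. Nr1d2 1416959_at read 6.25 in wild type array 2 of set 1, with the next array at 6.54. Clock 1418659_at read 9.37 in FoxO3 null array 1 of set 2, with the next at 9.51. In 2 probe sets every FoxO3 null array lay on one side of wild type in set 2 and on the other side in set 1. The share of all probe sets with this pattern was not computed, so the count carries no weight of its own. For Per3 1460662_at the difference between FoxO3 null and wild type was -0.17 in set 2 and 0.19 in set 1, so that the sets differed by -0.36. For Clock 1418659_at it was 0.28 in set 2 and -0.05 in set 1, a change of 0.33. Neither difference between the sets was tested, because the genes were chosen on this contrast.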

How the results depend on the processing

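The number of arrays limits every comparison, and dim probe sets show compressed differences after RMA. The median genotype difference of the 10 genes (-0.08) kept its sign in every alternative (-0.14 to -0.03), and Dbp 1438211_s_at ran from -0.81 to -0.40. The difference between E-box genes and positive limb (-0.24) was -0.13 without Dbp, 0.01 with the Y-linked covariate and -0.30 to -0.18 with single arrays left out. The 361 probe sets called between genotypes became 3 when set was not modelled, 146 using set 2, 42 using set 1, 39 with means of the 2 arrays, 0 with the Y-linked covariate, 825 with a variance trend and 1354 with a random block. They were 83 to 271 with single arrays left out, lowest without wild type array 1 of set 1. The random block took a negative correlation between arrays of 1 set and genotype (-0.264). The SE of Bhlhe40 was smaller with it (0.05, against 0.06). The labels do not say whether numbers shared by the genotypes pair arrays. Deviations of same-numbered arrays correlated at -0.0582 in set 2 and 0.0739 in set 1. With 2 arrays per set and genotype, these values cannot decide whether arrays were paired. The replicate block left 138 calls. Of the other clock genes, the 1 that passed became 0 without the set term, with the replicate block, in either set alone, with array means, with the Y-linked covariate and with each array left out (0 to 0), while its difference of -0.33 lay between -0.40 and -0.30. Between the sets, the 7 genes called became 3 in FoxO3 null alone, 3 in wild type alone, 4 with array means, 0 with the Y-linked covariate and 3 to 6 with single arrays left out, moving by over 1.5 times without array 2 of set 1 of either genotype (FoxO3 null 4, wild type 3) or wild type array 1 of set 2 (4). With that covariate the set differences of Dbp (1.00), Per1 (0.58), Per2 (0.27), Per3 (0.47), Cry1 (-0.44) and Clock (-0.48) were larger in size. That of Nr1d2 was smaller (-0.13, against -0.21), and all 7 genes had larger SEs. The Y-linked level itself went with set, so the parts of the 2 cannot be told apart. The 13 probe sets became 5 in FoxO3 null alone, 7 in wild type alone, 1 with the Y-linked covariate and 6 to 10 with single arrays left out, lowest without wild type array 2 of set 1. The 3 genes called in both directions became 1 with median-centred arrays, 0 in either genotype alone, with array means or with the Y-linked covariate, and 0 to 2 with single arrays left out. Fits on single sets, single genotypes or means hold fewer samples; the cause of the other changes was not tested.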
